A study of Homo sapiens with 12 samples.

Results

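Newly made RNA was compared between U2OS-MycER cells that carried an shRNA against CDK12 and had MycER switched on (the libraries labelled shCDK12+OHT) and cells that carried a non-targeting shRNA and received no OHT (shNT). The 3 shCDK12+OHT and 3 shNT libraries were assigned to their groups by their labels and make up 6 of the 12 libraries of the series. U2OS is a human osteosarcoma line, and U2OS-MycER cells express MycER, a chimera of Myc and an estrogen receptor domain that 4-hydroxytamoxifen (OHT) brings into the nucleus. All 6 libraries share the MycER transgene, the viral shRNA vector, doxycycline at 1 µg/mL to switch the shRNA on, an arrest with nocodazole at 100 ng/mL for 8 h and collection of the rounded cells, and growth for 12 h after release. The shCDK12+OHT cells alone received OHT at 300 nM for 40 h. For the last 2 h the cells took up 0.5 mM 5-ethynyl-uridine (EU), a uridine analogue, and 40 µg of their RNA, to which 10 µg of mouse RNA was added, gave the EU-labelled fraction that was captured and sequenced (EU-seq). The signal thus follows transcription in a 2 h window and not the store of mature RNA. The comparison changes the shRNA and OHT together, so their separate parts cannot be told apart in it. The sources used here do not say how many shRNAs or clones were used or whether the replicates are separate cultures. If they are not, the p-values measure only technical spread.

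CDK12 is a cyclin-dependent kinase that pairs with cyclin K and phosphorylates the tail of RNA polymerase II during elongation, and its loss is known for premature 3' end formation and for low output of DNA repair genes. Myc pairs with Max at E-boxes and raises genes for ribosome production, nucleotide synthesis and amino acid uptake, and it lowers genes for adhesion and extracellular matrix. U2OS cells come from a bone tumour and express mesenchymal genes.

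Counts per library summed to 4314380, 5227279 and 1928373 in shNT and to 7173020, 10447836 and 5378438 in the libraries labelled shCDK12+OHT, so low genes are measured least precisely in shNT. Values are given as CPM (each count as a share of its library, on a common scale), scaled by the trimmed mean of M-values (TMM). Such values are relative, so a rise or fall of all newly made RNA at once would not show in them. On the first principal component, which held 76.34% of the variance of log2 CPM, shNT lay between -38.96 and -31.81 and the libraries labelled shCDK12+OHT between 34.86 and 35.86. The second component (11.14%) mainly spread the shNT libraries, from -25.31 to 20.46.

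The silenced gene was read first, as a check of the labels. CDK12 was at 326, 285 and 312 CPM in shNT and 218, 208 and 221 CPM in those labelled shCDK12+OHT. All shCDK12+OHT libraries lay below all shNT libraries (log2 fold change -0.51, SE 0.07, adjusted p = 4.16e-07). On a scale set over all 12 libraries, however, CDK12 was at 289 ± 10.9 CPM (SD, n = 3) in the libraries labelled shCDK12 without OHT, against 304 ± 17.4 in shNT, 397 ± 38.7 in shNT with OHT and 214 ± 5.09 in those labelled shCDK12+OHT. On the same scale MYC was at 1124 ± 89.8 CPM in the libraries labelled shCDK12 without OHT, against 2093 ± 112 in shNT, 1967 ± 248 in shNT with OHT and 2062 ± 53.5 in those labelled shCDK12+OHT. The libraries labelled shCDK12 without OHT thus carry no clear fall of newly made CDK12 RNA against shNT, although they lie below shNT with OHT. An shRNA acts on mature RNA, which EU-seq does not follow, so this reading cannot check the labels by itself. These libraries and those labelled shCDK12+OHT may have been exchanged, which was not tested. Every direction given here holds for the labels as deposited. The counts map to the MYC gene whether they come from the endogenous gene or from coding parts of the transgene. MYC was at 2244, 2017 and 2090.2 CPM in shNT and 2123, 2095 and 2024 CPM in those labelled shCDK12+OHT, and the groups overlapped (log2 fold change -0.02, SE 0.06, adjusted p = 0.737). Among the other kinases and cyclins of this family, CDK13, the closest relative of CDK12, had a log2 fold change of -0.03 and cyclin K (CCNK) one of 0.25, and neither passed the test. CDK9, the kinase of the elongation factor P-TEFb, fell (-0.45), while its cyclins CCNT1 (0.37) and CCNT2 (0.34) and CDK7, the kinase of TFIIH (0.57), rose.

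Of 11982 genes tested, 6700 (55.9%) passed an adjusted p-value under 0.05 in edgeR's quasi-likelihood test, 3392 of them higher (28.3%) and 3308 lower (27.6%) in the libraries labelled shCDK12+OHT. A change of at least 2-fold was called for 632 genes higher (5.27%) and 637 lower (5.32%). These shares are the background against which each gene group below is read. The median log2 fold change over all genes was 0.0059, and in 7237 genes (60.4%) the libraries of one group did not overlap those of the other. Since more than 1 gene in 2 was called, a call by itself says little about a gene, and the size of the change and the share of a group that moved one way are given throughout.

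**Figure D1:**
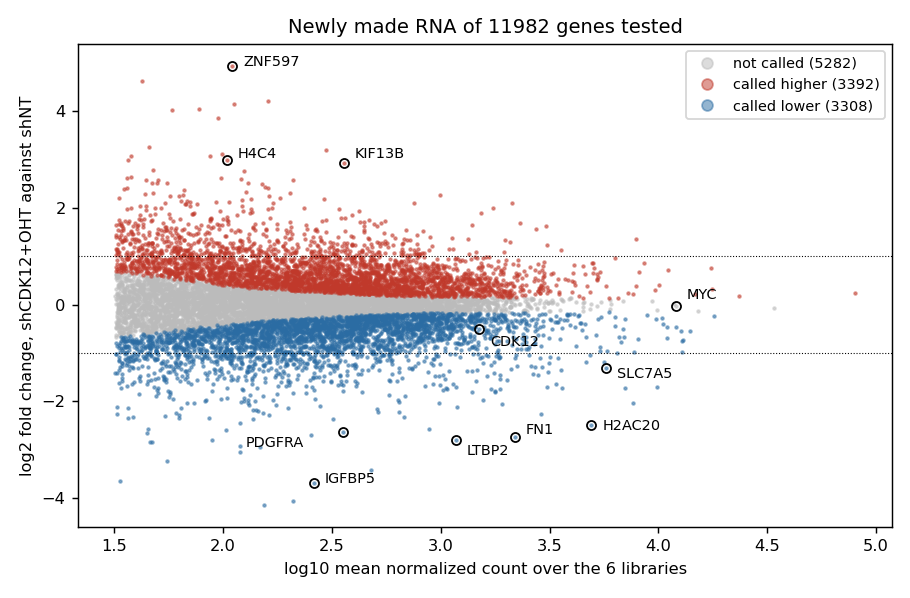
Each point is 1 of the 11982 genes tested, with its log10 mean normalized count over the 6 libraries on the x axis and its log2 fold change (shCDK12+OHT against shNT) on the y axis, red where called higher (3392), blue where called lower (3308) and grey where not called (5282). Dotted lines mark 2-fold changes, and circled genes are named in the text: FN1, LTBP2, IGFBP5 and PDGFRA lie far below them, ZNF597, H4C4 and KIF13B far above, and CDK12 between them.

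The replication-dependent histones, whose genes are transcribed in S phase and end in a stem-loop in place of a poly(A) tail, had the lowest median of the 61 gene lists examined: of 36 members tested, 32 were lower and 4 higher, with 25 at least 2-fold lower and a median log2 fold change of -1.44. The other 28 of the 64 members in the table were under the filter on low counts. H2AC20, an H2A gene, was at 1548, 1389 and 1454 CPM in shNT and 262, 276 and 241 CPM in those labelled shCDK12+OHT (log2 fold change -2.49, SE 0.07, adjusted p = 7.42e-23), and each library labelled shCDK12+OHT held less than any shNT library. H2BC21, the H2B gene that faces it across a shared promoter, fell as well (-1.36). The linker histone H1-4 was at 1795, 1861 and 2028 CPM in shNT and 613, 591 and 521 CPM in those labelled shCDK12+OHT (log2 fold change -1.72, SE 0.07, adjusted p = 2.08e-19), whereas H1-2 fell less (-0.41). Over the whole list, histone genes took 1.53%, 1.65% and 1.58% of all counts in shNT and 0.703%, 0.752% and 0.653% in the libraries labelled shCDK12+OHT. The share was 0.731%, 0.655% and 0.716% in the libraries labelled shCDK12 without OHT and 1.86%, 1.51% and 1.84% in shNT with OHT, so the low share was found in all 6 libraries with an shCDK12 label. Fewer cells in S phase and less histone RNA made per cell cannot be told apart in such bulk samples. Copies of these genes are close to identical, so that reads may be shared between them in a way that depends on how they were counted.

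4 histone genes went the other way. H4C4 was at 3.31, 4.43 and 4.16 CPM in shNT and 31.2, 30.5 and 34.0 CPM in those labelled shCDK12+OHT (log2 fold change 3.00, SE 0.21, adjusted p = 2.18e-13). H2BC8 was at 5.92, 7.12 and 9.89 CPM in shNT and 37.5, 36.1 and 35.4 CPM in those labelled shCDK12+OHT (log2 fold change 2.33, SE 0.18, adjusted p = 2.66e-12). H2AC8 was at 3.08, 4.24 and 2.60 CPM in shNT and 16.7, 20.8 and 11.6 CPM in those labelled shCDK12+OHT (log2 fold change 2.25, SE 0.28, adjusted p = 5.43e-08). In each of these genes the groups did not overlap. H4C3 rose less (0.61). After thinning to the smallest library, H4C4 and H2AC8 were under the filter on low counts and 2 histone genes, H2BC8 and H4C3, were called higher. H2BC8 and H2AC8 face each other across one promoter and rose together. In RefSeq gene order their tested neighbours on either side are H4C5 (-1.63) and H4C8 (-1.34), which fell, as did H3C4 (-2.57) and H2BC7 (-2.22) a few genes further. In shNT, H4C4, H2BC8 and H2AC8 gave under 10 CPM per library, a level at which few reads decide the value.

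**Figure D2:**
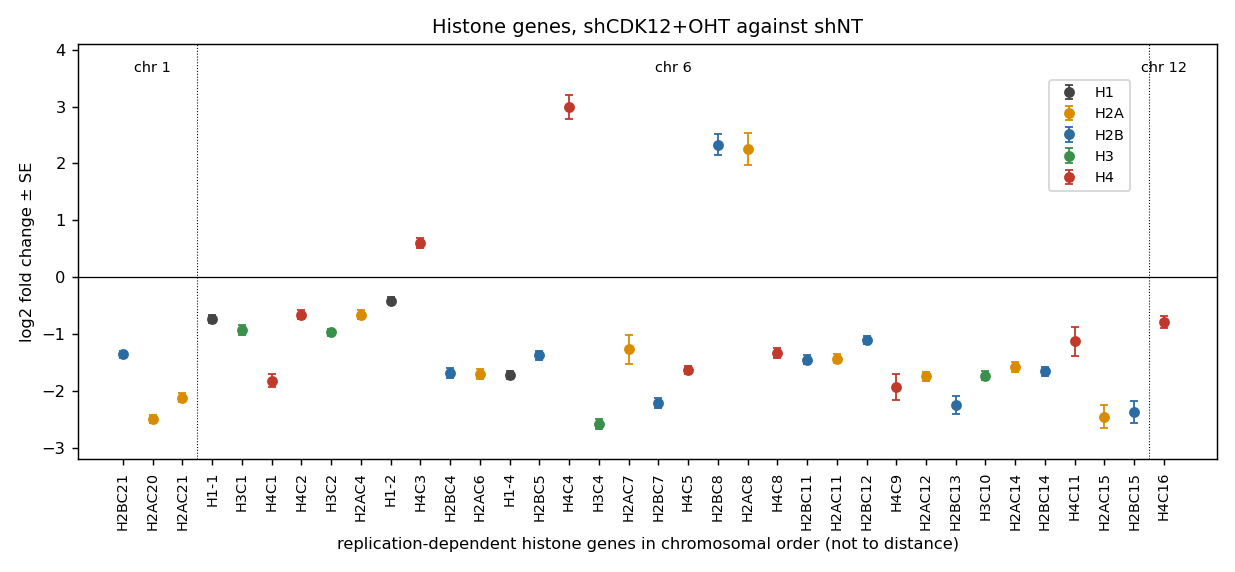
Log2 fold change (y axis) with its standard error for the 36 replication-dependent histone genes tested, in chromosomal order but not at scale (x axis), coloured by histone class, with dotted lines between chromosomes 1, 6 and 12. H2BC8, H2AC8, H4C4 and H4C3 lie above 0 among neighbours that lie below it.

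To show a pair of H2B promoters whose genes moved in opposite directions, H2BC7 (chr6:26199266-26199565, plus strand) and H2BC8 (chr6:26216639-26216938, minus strand) are printed from 250 bases before to 50 bases after the start, as given by RefSeq for GRCh38.p14. Capitals mark the octamer ATTTGCAT, which binds OCT1 and is typical of H2B promoters, and the TATA box TATAAA, on either strand. Both motifs, and the CHR and CCAAT box below, were chosen after the values were seen.
H2BC7: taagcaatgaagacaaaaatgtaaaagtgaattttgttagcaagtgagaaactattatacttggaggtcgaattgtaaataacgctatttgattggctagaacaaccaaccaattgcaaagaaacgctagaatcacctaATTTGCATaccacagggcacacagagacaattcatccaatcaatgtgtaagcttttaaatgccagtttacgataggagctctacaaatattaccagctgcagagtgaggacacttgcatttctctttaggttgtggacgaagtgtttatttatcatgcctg
H2BC8: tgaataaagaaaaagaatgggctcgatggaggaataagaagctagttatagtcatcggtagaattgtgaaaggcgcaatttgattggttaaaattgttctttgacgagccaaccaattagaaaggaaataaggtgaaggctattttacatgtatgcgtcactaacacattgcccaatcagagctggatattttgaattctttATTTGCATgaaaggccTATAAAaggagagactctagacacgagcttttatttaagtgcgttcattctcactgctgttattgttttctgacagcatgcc
Both hold the octamer, at bases 140 to 147 of H2BC7 and 203 to 210 of H2BC8, and H2BC8 holds TATAAA at bases 219 to 224. Of the 11982 genes tested, 9595 matched a promoter. The octamer was found in 16 of 33 histone promoters (48.5%), 7 of 10 H2B and 8 of 9 H2A promoters, against 1.29% of the promoters of all genes tested and 1.8% of all 27305 promoters in the table. TATAAA was in 72.7% of the histone promoters, against 5.58% of those of genes tested and 12.0% of all. Of the histone genes printed, the one that fell and the one that rose thus share the octamer.

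Genes of G2 phase and mitosis fell as a group: of 53 tested, 44 were lower, 0 were higher and 10 were at least 2-fold lower, with a median log2 fold change of -0.62. CCNF, cyclin F, was at 237, 214 and 209 CPM in shNT and 95.6, 100.2 and 89.4 CPM in those labelled shCDK12+OHT (log2 fold change -1.21, SE 0.08, adjusted p = 2.1e-14), with no overlap between the groups. AURKB, the kinase of the chromosomal passenger complex, was at 52.8, 47.9 and 57.2 CPM in shNT and 15.6, 18.3 and 17.6 CPM in those labelled shCDK12+OHT (log2 fold change -1.59, SE 0.13, adjusted p = 1.62e-11). On the log2 scale, the kinetochore gene SPC24 (-1.90), the condensin subunit SMC4 (-1.37), the motor KIF11 (-1.17) and topoisomerase TOP2A (-1.07) fell as well. MKI67, the proliferation marker (-0.87), cyclin B1 (CCNB1, -0.87) and FOXM1, a factor that drives this programme (-0.48), fell less, and CDK1 (-0.21) lost its call in 5 of 13 alternatives, among them the fit of all 12 libraries and the omission of shNT replicate 2 or 3 or of shCDK12+OHT replicate 1 or 2. CCNB2 (0.18) and MAD2L1 (0.29) had values above 0 that did not pass the test. In the CENP family of centromere proteins, which shares members with this list, 11 of 17 genes were lower and 1 was higher, a family looked at after the values were seen.

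The promoter of CCNF (chr16:2429197-2429496, plus strand, GRCh38.p14, RefSeq) is printed as that of a member that fell and that holds the CHR and the CCAAT box, a pair of motifs typical of genes of this phase. Capitals mark TTTGAA (CHR) and CCAAT.
CCNF: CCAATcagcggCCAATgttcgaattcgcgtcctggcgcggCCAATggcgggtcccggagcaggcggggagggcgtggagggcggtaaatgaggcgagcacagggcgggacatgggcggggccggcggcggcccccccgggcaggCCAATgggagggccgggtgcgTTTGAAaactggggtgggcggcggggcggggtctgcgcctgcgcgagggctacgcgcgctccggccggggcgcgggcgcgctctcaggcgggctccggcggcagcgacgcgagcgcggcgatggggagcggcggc
TTTGAA lies at bases 166 to 171 and CCAAT at bases 1 to 5, 12 to 16, 41 to 45 and 145 to 149. Searched on either strand, TTTGAA was found in 33 of 46 promoters of the G2 and mitosis list (71.7%), against 9.73% of those of genes tested and 15.4% of all promoters, and CCAAT in 73.9% against 36.9% and 35.7%. Among genes at least 2-fold lower TTTGAA was in 13.5%, and among those at least 2-fold higher in 10.7%.

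Replication genes fell in the main, with 34 of 60 lower, 10 higher and a median of -0.34. GINS1, a subunit of the replicative helicase, was at 99.9, 98.4 and 91.6 CPM in shNT and 28.4, 29.6 and 25.7 CPM in those labelled shCDK12+OHT (log2 fold change -1.79, SE 0.11, adjusted p = 4.73e-15). The origin recognition subunit ORC3 (-1.51), the histone chaperone ASF1B (-1.39), the single-strand binding subunit RPA2 (-1.14) and the licensing factor CDT1 (-0.90) fell too. PCNA, the sliding clamp, was at 166, 192 and 183 CPM in shNT and 223, 262 and 244 CPM in those labelled shCDK12+OHT (log2 fold change 0.43, SE 0.08, adjusted p = 2.29e-05). Of the other helicase genes read by name, MCM2 (0.29), MCM7 (0.26) and GINS2 (0.40) rose, MCM4 fell (-0.26), and MCM3 (0.03) and MCM5 (0.05) did not pass the test. The call was lost for MCM2 when all 12 libraries were fitted together, for MCM4 without shCDK12+OHT replicate 1, and for GINS2 in that joint fit, after thinning and without shCDK12+OHT replicate 2. Among regulators of G1, cyclin D1 (CCND1, -1.11), RB1 (-0.87) and the inhibitor CDKN2B (-1.96) fell, while CCND2 (0.82) and CCNE1 (0.31) rose, and the list as a whole had 8 higher and 12 lower of 31.

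Genes of homologous recombination, the Fanconi pathway and the damage checkpoint, the class for which CDK12 loss is best known, had 36 lower, 12 higher and 9 at least 2-fold lower of 66, with a median of -0.30. BRCA1, which directs recombination, was at 71.2, 67.6 and 70.2 CPM in shNT and 24.8, 26.5 and 30.8 CPM in those labelled shCDK12+OHT (log2 fold change -1.35, SE 0.12, adjusted p = 3.47e-11). FANCI, a core of the Fanconi pathway, was at 75.3, 83.9 and 85.9 CPM in shNT and 32.4, 27.9 and 34.5 CPM in those labelled shCDK12+OHT (log2 fold change -1.38, SE 0.11, adjusted p = 9.53e-12), and all its libraries labelled shCDK12+OHT were under those of shNT. Other members that fell were the nuclease subunit EME1 (-1.49), the clamp subunit RAD9A (-1.37), the checkpoint kinase ATR (-1.18), the helicase BLM (-1.04), the polymerase POLQ (-1.01) and FANCD2 (-0.89). BRCA2 (-0.58) and the kinase ATM (-0.43) fell less. Among the members that rose were CHEK2 (0.94), XRCC4 (0.69), TP53BP1 (0.66) and WRN (0.53), which lies in the stretch of chromosome 8 described below. XRCC4 lost its call after thinning to the smallest library and WRN when all 12 libraries were fitted together. Several of these genes, among them BRCA1 and FANCI, are also ones that cycle with S and G2 phase.

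Myc target genes did not rise as a group. Of 56 tested, 13 were higher, 21 lower and 1 at least 2-fold lower, with a median of -0.09, beside 28.3% and 27.6% of all genes. SLC7A5, the leucine transporter, was at 1418, 1358 and 1525 CPM in shNT and 595, 591 and 549 CPM in those labelled shCDK12+OHT (log2 fold change -1.31, SE 0.06, adjusted p = 3.16e-17), the largest fall of the list. EIF2S1, an initiation factor (-0.76), the spermidine synthase SRM (-0.75) and the pyrimidine enzyme CAD (-0.39) fell less. In the other direction EIF4E, which binds the mRNA cap, was at 44.96, 62.8 and 66.1 CPM in shNT and 102, 104 and 93.8 CPM in those labelled shCDK12+OHT (log2 fold change 0.81, SE 0.11, adjusted p = 1.22e-07). The mitochondrial chaperonin HSPE1 (0.83), LDHA (0.39) and ornithine decarboxylase ODC1 (0.29) rose, and nucleolin (NCL) had a log2 fold change of -0.04 that did not pass the test. The network around Myc moved more: of 13 genes, 7 were higher and 1 lower, with a median of 0.50. MAX was at 117, 117 and 114 CPM in shNT and 169.9, 171 and 154 CPM in those labelled shCDK12+OHT (log2 fold change 0.50, SE 0.08, adjusted p = 1.59e-06). The partners of Max that oppose Myc included MXI1, at 56.1, 60.3 and 47.9 CPM in shNT and 155, 156 and 145 CPM in those labelled shCDK12+OHT (log2 fold change 1.44, SE 0.09, adjusted p = 1.02e-14), MXD1 (1.18), MXD4 (0.84), MNT (0.67) and MGA (0.71), all of which rose, while MLX fell (-0.85).

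The SLC7A5 promoter (chr16:87869458-87869757, minus strand, GRCh38.p14, RefSeq) is shown as that of a Myc target with an E-box whose output was lower. Capitals mark the E-box CACGTG, which reads the same on both strands and lies at bases 121 to 126.
SLC7A5: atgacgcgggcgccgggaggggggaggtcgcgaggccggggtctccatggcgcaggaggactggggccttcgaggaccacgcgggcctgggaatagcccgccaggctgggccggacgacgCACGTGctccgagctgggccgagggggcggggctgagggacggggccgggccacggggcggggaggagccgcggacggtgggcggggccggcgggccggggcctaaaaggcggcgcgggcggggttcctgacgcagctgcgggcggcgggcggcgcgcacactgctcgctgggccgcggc
CACGTG was in 21 of 46 promoters of the Myc targets (45.7%), against 10.3% of those of genes tested and 7.43% of all. It was in 10.9% of promoters of genes at least 2-fold higher and in 6.83% of those of genes at least 2-fold lower.

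Lists of ribosome production and translation, machinery that Myc is known to feed, stayed close to the background with 1 exception. Ribosome biogenesis factors had 22 higher and 30 lower of 95 (median -0.10) and none changed 2-fold. Subunits of RNA polymerases I and III and their factors had 12 higher and 9 lower of 35. Cytosolic ribosomal proteins had 26 higher and 22 lower of 85 (median 0.06), with the tissue-restricted copies RPL10L (2.19) and RPL39L (-1.60) at the ends, RPL41 (1.06) and RPL22 (0.83) among those that rose and RPL38 (-1.01) and RPLP2 (-0.88) among those that fell, although many have near-identical pseudogenes. RPLP2 lies in the run on chromosome 11 described below. Translation factors had 16 higher and 15 lower of 48. The exception was the aminoacyl-tRNA synthetases, which load amino acids onto tRNAs: 14 of 20 were lower and 2 higher, with a median of -0.43. FARSB was at 41.4, 45.8 and 40.1 CPM in shNT and 20.96, 18.4 and 19.1 CPM in those labelled shCDK12+OHT (log2 fold change -1.14, SE 0.14, adjusted p = 2.13e-08), and WARS1 (-1.01) and AARS1 (-0.82) fell, while QARS1 (0.66) and VARS1 (0.31, a call lost when all 12 libraries were fitted together) rose.

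The list that covers amino acid supply, among other genes, was lower in the main. Of 30 genes tested in a mixed list of ATF4, the factor that answers amino acid shortage and ER stress, some of its targets and other genes of amino acid supply, 19 were lower and 8 higher, with a median of -0.40. The serine enzyme PSAT1 was at 27.2, 36.4 and 36.9 CPM in shNT and 11.4, 11.5 and 10.6 CPM in those labelled shCDK12+OHT (log2 fold change -1.56, SE 0.17, adjusted p = 3.36e-09). CBS, which makes cystathionine (-1.93), asparagine synthetase ASNS (-0.92), the cystine transporter SLC7A11 (-1.17) and SLC1A5, which carries glutamine (-1.05), fell with it. Among the members that rose, ATF3, a stress factor, was at 275, 256 and 239 CPM in shNT and 761, 853 and 791 CPM in those labelled shCDK12+OHT (log2 fold change 1.64, SE 0.07, adjusted p = 1.58e-18), with each library labelled shCDK12+OHT above each of shNT, and ATF5 (1.27), GDF15 (1.25), DDIT3 (CHOP, 1.04) and PPP1R15A (0.68) rose too. ATF4 itself (0.15) lost its call in 10 of 13 alternatives. Of 31 genes of nucleotide synthesis, 15 were lower and 1, DUT (0.57), was higher, a call lost when all 12 libraries were fitted together, without shNT replicate 2 and without shCDK12+OHT replicate 3, with a median of -0.28. GMPS, the last step to GMP, was at 54.9, 41.4 and 38.0 CPM in shNT and 21.7, 22.2 and 22.8 CPM in those labelled shCDK12+OHT (log2 fold change -1.03, SE 0.14, adjusted p = 2.09e-07), and the folate enzyme MTHFD1 (-0.92) and the ribonucleotide reductase subunits RRM2 (-0.76) and RRM1 (-0.65) fell.

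**Figure D3:**
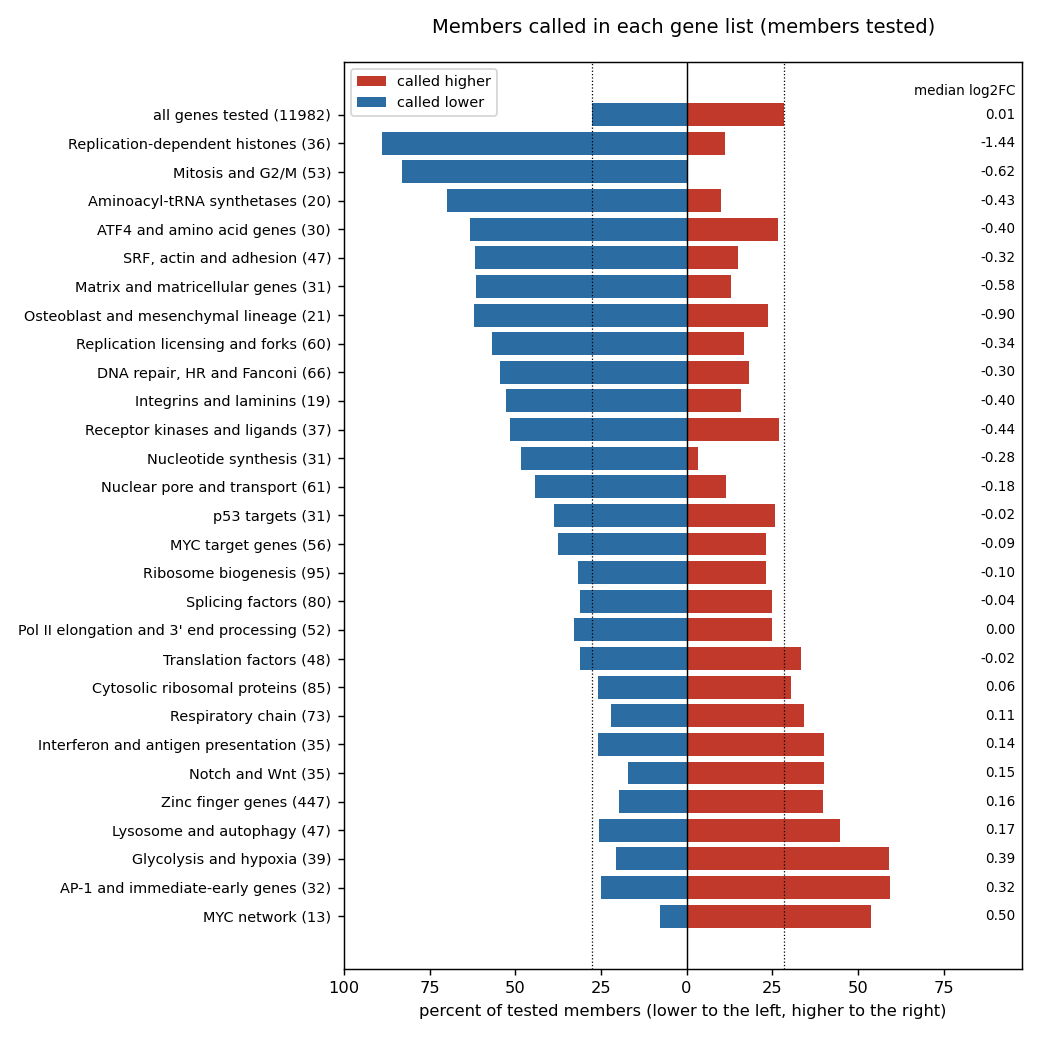
For all genes and 28 gene lists (number of members tested in brackets), the bars give the percent of tested members called lower (blue, to the left) and higher (red, to the right) on the x axis, with the median log2 fold change at the right edge. Dotted lines mark the shares over all genes, 27.6% and 28.3%: histones and the G2 and mitosis list reach furthest to the left and the AP-1, hypoxia and MYC network lists furthest to the right.

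Transcription machinery gave 2 large rises. HEXIM1, which holds P-TEFb inactive in the 7SK complex, was at 249, 241 and 225 CPM in shNT and 756, 728 and 655 CPM in those labelled shCDK12+OHT (log2 fold change 1.58, SE 0.07, adjusted p = 5.31e-18). POLR2A, the largest subunit of RNA polymerase II, was at 133, 137 and 112 CPM in shNT and 326, 329 and 345 CPM in those labelled shCDK12+OHT (log2 fold change 1.37, SE 0.08, adjusted p = 1.24e-15). In both genes the lowest library labelled shCDK12+OHT lay far above the highest of shNT. Over the 52 genes of elongation and 3' end processing, 13 were higher and 17 lower, with a median of -0.0049. Among those lower were CPSF2 (-0.86), CPSF3 (-0.75), SYMPK (-0.71), CSTF1 (-0.70) and CPSF7 (-0.58), which cut and polyadenylate RNA. Factors of this kind are named singly here and were not counted as a group. The pausing subunits NELFE (-1.20) and NELFB (-0.47, not called after thinning) and the FACT subunit SUPT16H (-0.87) were lower too. The PAF complex subunit CTR9 (0.85), the elongation factor TCEA1 (0.78) and the terminator PCF11 (0.27) rose. Splicing factors had 20 higher and 25 lower of 80, with HNRNPUL1 (-1.02) and MBNL2 (0.64) at the ends. Of 27 factors that act on RNA-DNA hybrids, 2 were higher (7.41%, against 28.3% of all genes), among them THOC6 (1.33). The 8 that were lower (29.6%) lay close to the share over all genes (27.6%), and the median was -0.09. Among these 8 were the RNase H2 subunits RNASEH2A (-0.78) and RNASEH2C (-0.71).

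Immediate-early genes, which answer growth factors and stress within minutes, rose in the main, with 19 higher and 8 lower of 32 and a median of 0.32. NR4A3, an orphan receptor, was at 11.1, 9.82 and 7.81 CPM in shNT and 38.1, 40.2 and 31.8 CPM in those labelled shCDK12+OHT (log2 fold change 1.90, SE 0.17, adjusted p = 6.94e-11). FOS (0.53), FOSB (1.14), MAFF (1.23) and DUSP1 (0.76) rose, while other AP-1 members fell, with JUN at -0.48, FOSL1 at -0.71 and FOSL2 at -1.19, and the decay factor ZFP36L1 at -1.71. Heat shock genes HSPA1A (1.55) and HSPA1B (1.76), which are near-identical, and DNAJB4 (1.67) rose, against falls of HSPA9 (-1.07) and the ER genes HERPUD1 (-1.07) and XBP1 (-0.85), and chaperones as a list had 13 higher and 8 lower of 39. Targets of p53 showed no common direction, with 8 higher and 12 lower of 31 and a median of -0.02. CDKN1A rose little (0.22, a call lost when all 12 libraries were fitted together), MDM2 (0.07) and PMAIP1 (-0.04) did not pass the test, and BAX (-0.68) and FAS (-0.54) fell.

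Genes of glycolysis and of the answer to low oxygen were higher in 23 and lower in 8 of 39, with a median of 0.39. ADM, adrenomedullin, was at 24.4, 23.1 and 24.5 CPM in shNT and 91.7, 107 and 83.7 CPM in those labelled shCDK12+OHT (log2 fold change 1.99, SE 0.12, adjusted p = 6.3e-15). EPAS1 (HIF-2 alpha) was at 32.9, 25.4 and 23.4 CPM in shNT and 70.8, 69.9 and 69.4 CPM in those labelled shCDK12+OHT (log2 fold change 1.33, SE 0.12, adjusted p = 1.14e-10), and the groups did not overlap in either gene. The oxygen sensor EGLN3 (1.27), the membrane carbonic anhydrase CA12 (1.14), the mitophagy receptor BNIP3 (1.10), P4HA1 (0.96) and NDRG1 (0.85) rose, and so did BNIP3L (1.30), which lies in the stretch of chromosome 8 described below. The rise did not cover the whole pathway: HIF1A (-0.49), the glucose transporter SLC2A1 (-0.44) and PFKP (-1.03) fell and VEGFA (-0.08) did not pass the test. Lysosome and autophagy genes were higher in 21 and lower in 12 of 47 (median 0.17), with GABARAPL1 (0.91) and ATG14 (0.89) higher and cathepsin B (CTSB, -0.88) lower. Respiratory chain genes were higher in 25 and lower in 16 of 73, and genes of cholesterol and fatty acid synthesis in 9 and 9 of 35.

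Extracellular matrix and adhesion genes fell widely. Fibronectin (FN1), which links cells to the matrix, was at 662, 644 and 695 CPM in shNT and 106, 88.1 and 109 CPM in those labelled shCDK12+OHT (log2 fold change -2.73, SE 0.08, adjusted p = 8.9e-23). LTBP2, a protein of elastic fibres, was at 365, 360.0 and 351 CPM in shNT and 57.2, 50.3 and 46.6 CPM in those labelled shCDK12+OHT (log2 fold change -2.80, SE 0.08, adjusted p = 8.9e-23). THBS1, thrombospondin, was at 2107, 2149 and 2172 CPM in shNT and 524, 532 and 522 CPM in those labelled shCDK12+OHT (log2 fold change -2.03, SE 0.06, adjusted p = 1.56e-22). In none of these genes did the groups overlap. Over the list of matrix and matricellular genes, 19 were lower, 4 higher and 11 at least 2-fold lower of 31, with a median of -0.58, and FBLN1 (1.65) and NID1 (0.99) rose most. The 4 called higher became 2 without shCDK12+OHT replicate 1 or 2, after thinning and with all 12 libraries in one fit. Collagens split, with 8 lower and 6 higher of 22: COL6A3 (-2.31), COL1A1 (-1.39), COL4A1 (-1.22) and COL4A2 (-1.12) fell, and COL3A1 (1.52) and COL5A2 (1.10) rose. Integrins and laminins had 10 lower and 3 higher of 19, from ITGA3 (-1.54) to LAMA2 (1.05). Matrix proteases and their inhibitors had 15 lower and 9 higher of 31, with the urokinase PLAU (-1.52), MMP2 (-1.28), MMP14 (-1.01) and TIMP1 (-1.30) lower and ADAMTS1 (1.51) higher. Genes of SRF, actin and focal adhesions were lower in 29 and higher in 7 of 47 (median -0.32). Vinculin (VCL) was at 271, 257 and 261 CPM in shNT and 96.8, 94.8 and 97.3 CPM in those labelled shCDK12+OHT (log2 fold change -1.45, SE 0.07, adjusted p = 5.05e-17), and TGFB1I1 (-1.98), ACTN1 (-1.19), zyxin (ZYX, -1.07) and TAGLN (-0.91) fell, whereas ACTB (-0.14, called in several alternatives) and SRF itself (-0.12) did not pass the test. The CArG box that binds SRF was in 16.7% of the promoters of this list, against 1.03% of those of genes tested and 1.29% of all, and in 0.803% of those of genes at least 2-fold lower.

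Genes of the osteoblast and mesenchymal lineage were lower in 13 and higher in 5 of 21, with 9 at least 2-fold lower and a median of -0.90. The receptor PDGFRA was at 101, 103 and 119 CPM in shNT and 15.3, 16.4 and 20.4 CPM in those labelled shCDK12+OHT (log2 fold change -2.63, SE 0.12, adjusted p = 7.07e-18). PDGFRB (-2.09), SNAI2 (-2.01) and RUNX2, the osteoblast factor (-1.01), fell, and BMP2 (1.13) and FGFR1 (0.75) rose. CDH11 (cadherin 11) fell too (-3.65), from 7.81, 13.7 and 11.4 CPM in shNT to 1.10, 0.856 and 0.551 CPM in those labelled shCDK12+OHT. At so few reads the size of this fall is uncertain, and CDH11 was tested in only 9 of 13 alternatives. The 9 markers named for U2OS were COL1A1, COL1A2, VIM, FN1, RUNX2, TWIST1, CDH2, CDH11 and PRRX1, of which 6 were tested. TWIST1 was at 0 in all 6 libraries and COL1A2 at most at 0.551 CPM in any. Their summed level was 1455, 1426 and 1452 CPM in shNT and 484, 466 and 483 CPM in those labelled shCDK12+OHT. FN1 was the most abundant of these markers in shNT, and VIM was in the libraries labelled shCDK12+OHT. Epithelial markers summed to 810, 753 and 749 CPM in shNT and to 1013, 1083 and 1033 CPM in those labelled shCDK12+OHT. Of these 10 markers, 4 were tested and 3 were higher, KRT18, the most abundant, (0.35), KRT8 (0.33) and CLDN4 (1.86), while KRT19 was at 0 in all 6 libraries and CDH1 (-0.34) did not pass the test. Blood cell markers summed to at most 9.37 CPM in shNT and at most 17.3 CPM in those labelled shCDK12+OHT. LCP1 was the most abundant of them except in shNT replicate 3, where CD79A was, at 4.16 CPM. Endothelial markers summed to at most 23.2 CPM in any of the 6 libraries, with ERG the most abundant and EMCN at 0 throughout. Neural markers summed to between 139 and 160 CPM in all 6 libraries, most of it TUBB3. The part of a shift in cell state or in the mix of cells in these results was not tested.

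Receptor kinases and their ligands were lower in 19 and higher in 10 of 37 (median -0.44). EGFR was at 47.3, 38.3 and 54.1 CPM in shNT and 18.5, 14.5 and 18.5 CPM in those labelled shCDK12+OHT (log2 fold change -1.42, SE 0.15, adjusted p = 2.11e-09), and AXL (-1.74), the semaphorin and VEGF co-receptor NRP1 (-1.96) and DDR2, which binds collagen (-1.38), fell, while PDGFD (1.73) and FGFR3 (1.31) rose. Genes that answer YAP and TGF-beta went both ways, with 20 lower and 15 higher of 48. Single genes tied to TGF-beta that fell were TGFB2 (-1.36), INHBA (-1.29) and TGFBI (-1.05), but such genes were not counted apart from those of YAP. The targets of BMP signalling ID1 (1.13) and ID2 (1.16) rose, and ID3 was at 113, 108 and 102 CPM in shNT and 293, 320.0 and 235 CPM in those labelled shCDK12+OHT (log2 fold change 1.39, SE 0.09, adjusted p = 4.58e-14). BAMBI, a decoy receptor, rose as well (1.46), while the ligand BMP4 fell (-1.03). Of the YAP targets, CCN2 (0.18) lost its call in 4 of 13 alternatives, the fit of all 12 libraries and the omission of shNT replicate 2 or 3 or of shCDK12+OHT replicate 2, and CCN1 (-0.06) did not pass the test. Among 35 Notch and Wnt genes, 14 were higher and 6 lower. DKK1, a secreted Wnt inhibitor, was at 1.18, 1.93 and 1.04 CPM in shNT and 11.4, 17.7 and 14.1 CPM in those labelled shCDK12+OHT (log2 fold change 3.27, SE 0.34, adjusted p = 1.06e-09), and NKD1 (1.65) and RNF43 (1.46), further inhibitors of the pathway, rose, whereas LFNG, which modifies Notch, was at 821, 851 and 850.2 CPM in shNT and 173, 187 and 165 CPM in those labelled shCDK12+OHT (log2 fold change -2.26, SE 0.07, adjusted p = 2.59e-22).

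Genes of the interferon answer and of antigen presentation were higher in 14 and lower in 9 of 35, with 8 at least 2-fold higher and none 2-fold lower. SAMD9, an antiviral factor, was at 201, 176 and 193 CPM in shNT and 584, 613 and 624 CPM in those labelled shCDK12+OHT (log2 fold change 1.68, SE 0.07, adjusted p = 1.14e-18). The MHC class I genes B2M (1.16), HLA-B (1.10) and HLA-E (1.02) rose, and so did IFIT1 (1.57) and TRIM22 (1.65), whereas IRF1 (-0.32), which drives such genes, fell, a call lost when all 12 libraries were fitted together. Genes of NF-kB and cytokines had 9 higher and 9 lower of 30, from CSF2 (-2.08) to IL1A (2.52). Zinc finger genes, most of which encode DNA-binding repressors, were higher in 178 (39.8%) and lower in 88 (19.7%) of 447, with a median of 0.16. The end members were ZNF597 (4.94), which had few reads in shNT as given below, and ZNF85 (-2.35).

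**Figure D4:**
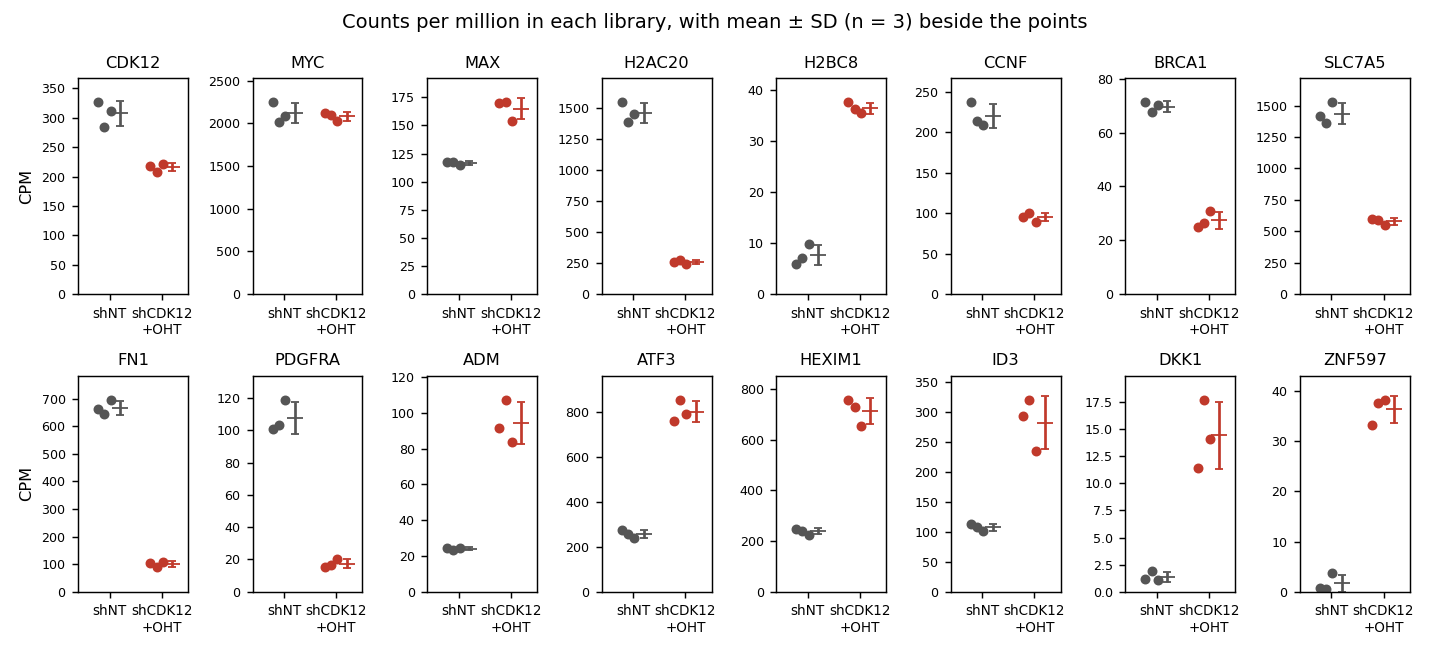
CPM (y axis, from 0) of 16 genes named in the text in each shNT library (grey) and each library labelled shCDK12+OHT (red), with the mean ± SD (n = 3) beside the points. The groups overlap for MYC only, and the 15 other genes keep the order given in the text in all 6 libraries.

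Among genes with a mean of at least 100 normalized counts, no overlap between the groups and a named RefSeq symbol, the 12 largest rises and the 12 largest falls were as follows, with H4C4 given above. ZNF597, a zinc finger gene, was at 0.710, 0.578 and 3.64 CPM in shNT and 33.2, 37.6 and 38.2 CPM in those labelled shCDK12+OHT (log2 fold change 4.94, SE 0.30, adjusted p = 5.81e-15). DCAF8L2 (4.21), ANKRD30B (4.16), THSD4, a matrix assembly factor (3.20), GCNT2 (2.78), GCH1, which makes tetrahydrobiopterin (2.60), the sorting receptor SORL1 (2.52), the protocadherin PCDH9 (2.50) and FAM222A (2.43) rose, with KIF13B and FZD3 described below. ANKRD30B, for example, was at 2.13, 2.12 and 1.56 CPM in shNT and 37.5, 32.7 and 40.4 CPM in those labelled shCDK12+OHT. ZNF597, DCAF8L2 and ANKRD30B were at most at 3.85 CPM in any shNT library. They met the limits on mean counts through the libraries labelled shCDK12+OHT, and few shNT reads set the size of their rises. The largest fall was that of the prostaglandin transporter SLCO2A1, at 58.5, 40.4 and 54.6 CPM in shNT and 3.03, 2.76 and 2.75 CPM in those labelled shCDK12+OHT (log2 fold change -4.14, SE 0.20, adjusted p = 3.09e-17). IGFBP5, which binds insulin-like growth factors, was at 91.3, 78.6 and 86.9 CPM in shNT and 7.03, 6.84 and 5.69 CPM in those labelled shCDK12+OHT (log2 fold change -3.69, SE 0.14, adjusted p = 1.27e-19). LINC03033 (-4.06) fell more than IGFBP5. LRRN1 (-3.41), NTM (-3.05), SERPINA1, the inhibitor of elastase (-2.70), TNS4 (-2.60) and the cancer-testis genes MAGEA3 (-2.93) and MAGEA10 (-2.93) followed, besides FN1, LTBP2 and PDGFRA. MAGEA6, a near-identical relative of MAGEA3, rose (0.58), so their counts are uncertain, and of 13 MAGE genes tested, a family looked at after the values were seen, 7 were higher and 3 lower. Of the 24 genes of largest change, 8 overlap another gene of the table, among them FN1, PCDH9 and FAM222A, so reads of the partner cannot be told apart where strand was not used.

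Some of these genes are neighbours. When the tested genes were put in RefSeq order and read in windows of 25, a description chosen after the values were seen, 90% of 11396 windows had a median log2 fold change between -0.36 and 0.353. The highest median, 1.299, lay on chromosome 8, in a run of 48 tested genes from LOXL2-AS1 to RAB11FIP1 of which 32 were higher and 5 lower (median 0.70). KIF13B, a kinesin, was at 17.7, 10.97 and 15.1 CPM in shNT and 111, 109 and 107 CPM in those labelled shCDK12+OHT (log2 fold change 2.93, SE 0.13, adjusted p = 3.54e-18). The Wnt receptor FZD3 was at 11.4, 10.97 and 7.81 CPM in shNT and 65.9, 59.8 and 62.6 CPM in those labelled shCDK12+OHT (log2 fold change 2.57, SE 0.15, adjusted p = 2.2e-15). SARAF (2.26), DCTN6 (2.20), LEPROTL1 (2.11), EXTL3 (2.00), HMBOX1 (1.93), CLU (1.89) and the Integrator subunit INTS9 (1.20) rose with them. Another run of 37 tested genes on chromosome 11, from BET1L to TSSC4, had 25 lower and 3 higher (median -0.72), and the remaining windows beyond ±0.7 held the histone genes of chromosome 6. As a median over the genes of the chromosome 8 run, log2(CPM + 1) was 0.662, 0.624 and 0.763 above the shNT mean in the libraries labelled shCDK12+OHT. The number of gene copies in the cells that carry either shRNA was not tested.

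**Figure D5:**
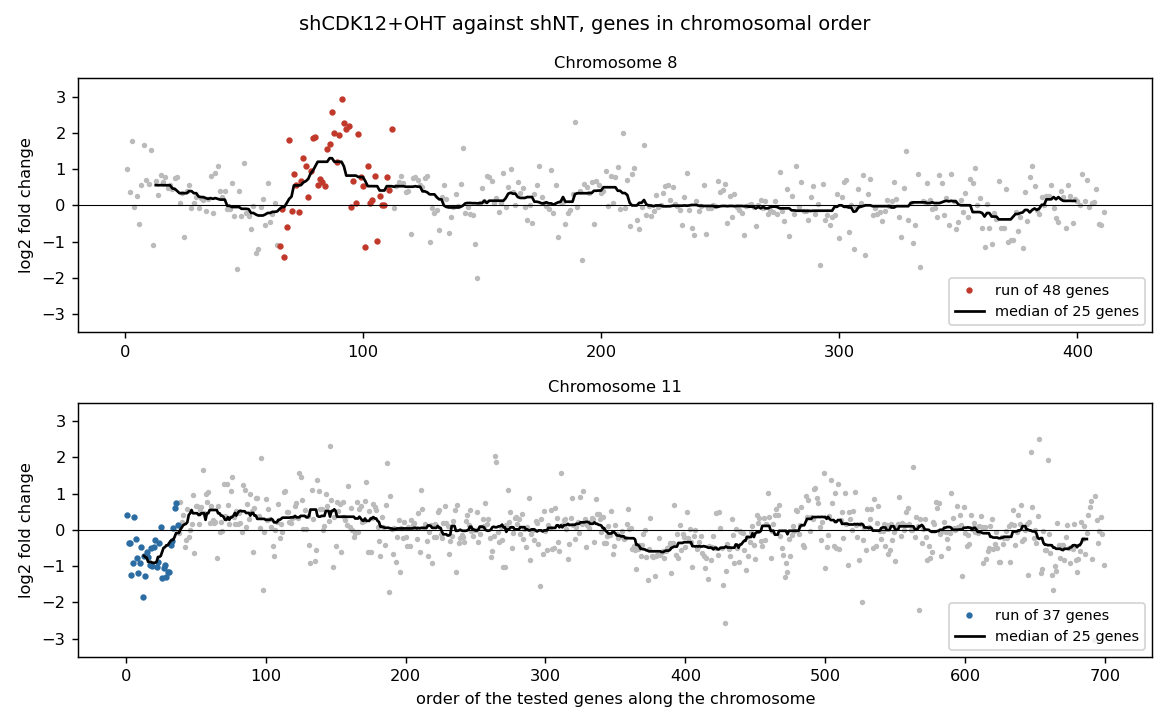
Log2 fold change (y axis) of the tested genes of chromosomes 8 and 11 in chromosomal order (x axis, rank of the gene), with the run of 48 genes in red and that of 37 genes in blue. The black line is the median of 25 neighbouring genes, which rises to 1.299 in the chromosome 8 run and lies below 0 over most of the chromosome 11 run.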

How the data were processed

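EU-seq count tables were used as deposited: the authors gave whole-number read counts per gene, not normalized, for 23434 genes in 12 libraries, of which 6 were compared here. The submitters' processing notes name STAR 2.7.5c, featureCounts 1.4.5-p1 and hg19, with no role or order. The annotation and the strand setting of the counting are not given in the sources used here. RefSeq (GRCh38.p14) named 23284 rows and gave promoters and gene order, and no coordinate was converted.

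Genes with a mean normalized count above 32 were tested by edgeR 4.0.16 (R 4.3.3) with TMM normalization, a quasi-likelihood F-test between the groups and Benjamini-Hochberg adjustment over all genes tested. Genes were called at an adjusted p under 0.05. In counts simulated from the shNT means, the test recovered 186 of 191 genes changed 2-fold, with 5 false calls among 11607 genes. Few genes were changed in the simulation, whereas 55.9% were called in the data, so it cannot tell how many of those calls are false. Alternatives were DESeq2 1.42.0, other normalizations and filters, thinning to 1928373 counts, a replicate block, a fit of all 12 libraries and each library left out in turn. Replicates differed by more than sampling noise.

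The comparison, gene lists and motifs were chosen with earlier results of these data known. Named genes are CDK12, CDK13, CCNK, MYC and MAX, the 12 largest called rises and falls with a mean of at least 100 normalized counts, no overlap between groups and a named RefSeq symbol, the largest rise, the largest fall and the most abundant member of each list, and members whose role is described. The 150 rows with no RefSeq symbol were tested but not named, and results for a few genes and 1 list are not reported here. Gene span is not reported either, since the reference and the counts name different builds. Precision is limited by the smallest library, shNT replicate 3.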

Additional observations from a re-analysis of the deposited data

Results flagged for a closer look

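The stretch of chromosome 8 from LOXL2-AS1 to RAB11FIP1, which was high in the libraries labelled shCDK12+OHT, was also high in libraries that the comparison did not use. In the libraries labelled shCDK12 without OHT the median over its genes of log2(CPM + 1) lay 0.71, 0.824 and 0.754 above the shNT mean, with 0.754 in the middle library. In shNT with OHT it was -0.245, -0.007 and 0.001, and in shNT itself 0.023, 0.028 and -0.036. The run on chromosome 11 from BET1L to TSSC4 was low in the libraries labelled shCDK12 without OHT, at -0.593, -0.602 and -0.494, with -0.593 in the middle library, against 0.481, 0.059 and 0.143 in shNT with OHT. The part of gene copy number in either run was not tested.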

How the results depend on the processing

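Between 4720 and 7516 genes were called when 1 setting was changed, apart from the single-library omissions, against 6700, and 48.9% to 52.6% of the called genes were higher in any of the settings. At least 2-fold higher were 1261 genes with no filter on low counts, 1017 with edgeR's own filter and 358 after thinning to the smallest total, against 632, and 989 were at least 2-fold lower with no filter, against 637. The first 2 settings test more genes and thinning fewer. With each library left out in turn, 5659 to 6724 genes were called, 2861 to 3398 higher and 2798 to 3326 lower, 577 to 777 at least 2-fold higher and 615 to 675 at least 2-fold lower, and the log2 fold change of CDK12 ranged from -0.57 to -0.47. With the replicate number as a block, 6491 genes were called, 3293 higher and 3198 lower, 6456 of them shared with the 6700. The numbers did not pair the libraries (r of 0.0185, 0.0125 and 0.00721 between same-numbered ones). Without the chromosome 8 run 6663 genes were called, and without both runs 6635.

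Of 185 named genes besides CDK12, 159 kept their call and direction in every alternative that tested them, 14 lost the call in at least 1, 6 gained one and 6 changed sign. Those 6 had log2 fold changes near 0. With each library left out in turn they ranged from -0.0941 to 0.0015 for CDK13, -0.0635 to 0.0146 for MYC, -0.17 to 0.0112 for SRRM2, -0.0048 to 0.0771 for RPL4, -0.0089 to 0.0809 for AFF4 and -0.0275 to 0.076 for KLF10, which was also at -0.00031 with upper-quartile scaling and -0.00042 with edgeR's filter. The cause was not tested. None of the 25 lists recomputed turned its larger direction in these alternatives. Of 650 recomputed list counts, 25 moved by over 1.5 times. With all 12 libraries in one fit, ribosome biogenesis genes called higher went from 22 to 8, ribosomal proteins called lower from 22 to 12, DNA repair genes called higher from 12 to 7, replication genes from 10 to 6, matrix proteases and inhibitors from 9 to 5, p53 targets from 8 to 5 and nuclear pore genes from 7 to 4. Thinning took zinc finger genes called lower from 88 to 58, interferon genes called higher from 14 to 9, collagens from 6 higher and 8 lower to 3 and 5, and histones called higher from 4 to 2. Without shCDK12+OHT replicate 1, lysosome genes called lower went from 12 to 7. With no filter, matrix proteases and inhibitors called higher went from 9 to 15 and osteoblast genes from 5 to 8. The other moves were of counts of 4 or fewer. Of the 249 called genes whose values are printed, 13 lost the call in at least 1 alternative that tested them, as given beside each, and 0 turned direction. Some were under the filter in part of the 13 alternatives: CDH11 and FBLN1 were tested in 9, KCNJ2 in 10 and DKK1 and FGFR3 in 11. Low genes are limited by the 1928373 counts of shNT replicate 3.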

Other observations

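In all, 22 families grouped by symbol, the MAGE and CENP genes among them, were looked at after the values were seen. Most small RNAs that guide RNA modification lie in introns, so that unspliced host RNA cannot be told apart from them. Of 12 SCARNA genes tested, which guide modification of spliceosomal RNAs in Cajal bodies, 10 were higher and 0 lower (median log2 fold change 0.69), and of 44 SNORA genes, which guide pseudouridylation, 18 were higher and 1 lower (0.28). Of 40 SNORD genes, which guide ribose methylation, 8 were higher and 7 lower (0.04). SNORA, SNORD and SCARNA genes together took 0.175%, 0.196% and 0.196% of counts in shNT and 0.214%, 0.241% and 0.234% in the libraries labelled shCDK12+OHT. The share was 0.237%, 0.306% and 0.294% in the libraries labelled shCDK12 without OHT. In shNT with OHT it was 0.187%, 0.227% and 0.265%, a range that spans the values of the libraries labelled shCDK12+OHT. Subunits of the RNA exosome, which degrades nuclear RNA, were lower in 6 of 10 and higher in 0 (-0.41). Kinesins were lower in 16 and higher in 3 of 32 (-0.25), receptors of the TNF family lower in 5 and higher in 0 of 6 (-0.56), and TRIM genes higher in 20 and lower in 7 of 41 (0.16). Other families were mixed: FOX factors had 7 higher and 6 lower of 20 (0.12), PPP1R genes 7 and 9 of 28 (-0.04), tubulins 5 and 7 of 20 (-0.15), tetraspanins 5 and 8 of 16 (-0.18) and annexins 2 and 3 of 8 (-0.26). Among the smaller ones, KLF factors had 6 higher and 2 lower of 11 (0.25), SOX factors 3 and 1 of 9 (0.20), DUSP phosphatases 4 and 0 of 15 (0.10), keratins 5 and 2 of 8 (0.34) and S100 genes 1 and 4 of 7 (-0.53). GAGE, SSX, XAGE and PAGE genes had 1 higher and 1 lower of 3, metallothioneins 0 and 2 of 3, and a group of small Cajal and U RNAs 2 and 2 of 5.

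Nuclear pore and transport genes were lower in 27 and higher in 7 of 61, with NUP37 (-1.51) and NUP58 (0.74) at the ends. Genes for chromatin and Polycomb were higher in 17 and lower in 16 of 58, with SUV39H1 (-1.24), which methylates histone H3, lowest. Among 10 histone variants tested, 5 were lower and 1 was higher, led by H2AJ (-1.06). Mediator and Integrator subunits had 8 higher and 12 lower of 48, proteasome genes 8 and 12 of 47 and mitochondrial ribosomal proteins 14 and 19 of 72, led by MRPS6 (-1.49). Ubiquitin ligases and their opposing enzymes were higher in 83 and lower in 49 of 229.

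Clock genes had 7 higher and 8 lower of 20, with the output factor DBP (2.05) and the repressor BHLHE41 (-1.88) at the ends. HOX genes had 8 higher and 4 lower of 19, from HOXA3 (-1.63) to HOXA11 (1.75). Genes of the IGF axis had 3 higher and 4 lower of 11, with IGF2BP1 (1.54), which binds mRNA, highest. Ion channels had 12 higher and 20 lower of 54, with the potassium channel KCNJ2 (2.64) highest. Solute carriers had 52 higher and 60 lower of 199. Semaphorins, plexins, slits and netrins had 8 higher and 12 lower of 32, and cadherins and protocadherins 8 and 10 of 30. Of 425 long non-coding RNAs, 124 were lower (29.2%, against 27.6% of all genes) and 92 higher (21.6%, against 28.3%). Antisense genes had 45 lower and 29 higher of 154, where reads of the partner gene cannot be told apart if strand was not used. LINC genes had 21 lower and 25 higher of 83, a list of abundant nuclear ones 9 and 2 of 20, and hosts of snoRNAs 4 and 6 of 20.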
